A study of Mus musculus with 5 samples.

Results

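Distal intragenic REST sites of the E13.5 mouse pancreas are regions called as bound in both libraries of that stage that lie inside a protein-coding gene but far from every protein-coding start. They were chosen by the E13.5 calls and by position. Overlapping peaks of the 5 libraries were merged into union sites. A site was kept if it held a peak from each E13.5 library, if its midpoint lay more than 5 kb from every start of a protein-coding transcript, and if that midpoint fell inside the body of a protein-coding gene (mm9, GENCODE vM1). E18.5 peaks entered the merging and so the extent of a site, and merging the E13.5 peaks alone gave the same number of sites, 334. The rule found 334 sites among the 1183 sites of both E13.5 libraries on assembled chromosomes (28.2%). The other sites were 377 promoter-proximal sites, within 5 kb of a start, and 472 distal intergenic sites. The 5 libraries together gave 1860 union sites.

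The study mapped REST in whole pancreas of untreated wild-type mouse embryos of a mixed strain with C57BL/6, by chromatin immunoprecipitation with the mouse monoclonal antibody 12C11. E13.5 had 2 libraries, A and B, each from a pool of 4 to 6 pancreases. E18.5 had 3 libraries, A, B and C, each from a pool of 3 to 4. The deposited peak lists held 1407 and 1335 entries in the E13.5 libraries, or 1400 and 1333 peaks once overlapping entries were merged. The E18.5 libraries held 545, 419 and 229 entries, or 541, 417 and 226 peaks. The sequencing depth behind each list is unknown, since totals of reads were not part of the files used, and a missing peak does not show that a site was unbound. Peak lists hold no expression values, so the cell types in the tissue could not be checked against markers. In bulk tissue, fewer bound cells and less binding per cell cannot be told apart.

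REST is a zinc finger protein that represses transcription. It reads a DNA element called RE1 and brings corepressor complexes with histone deacetylases to it, and many of its targets encode proteins of neurons, which other cells then do not make. Endocrine cells of the pancreas share many of those genes, among them genes of regulated secretion. RE1 has a left and a right part that are read together, and each part can also be found alone or at another spacing.

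The RE1 consensus searched here was 21 bp long. It joined the left half-site TTCAGCACC, the bases AT, the right half-site GGACAGCGC and a final C, and a match was allowed up to 5 mismatches on either strand of a 500-bp window at the site's midpoint. Elements of sites with the highest peak scores are printed to show what the match looked like there, with the 3 elements that had only 1 mismatch. Among the 12 highest-ranked sites, the Celf4 site, whose match had 5 mismatches, is given without sequence, and the Unc5a and Cdk5rap2 sites held no full match. All are reference sequence of mm9, written 5′ to 3′ on the strand of the element, and capitals mark bases that equal the consensus.

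Phf21b, chr15:84660025-84660045, minus strand: gcCAGCACCAcGGACAGCaCC
Camta1, chr4:150978795-150978815, minus strand: TTCAGaACCAgGGACAGCGCC
Xkr6, chr14:64300456-64300476, plus strand: ggCAGCACCAcGGACAGCtCC
Rbfox3, chr11:118446381-118446401, minus strand: TTCAGCACCAgGaACAGCGCC
Erich1, chr8:14072727-14072747, plus strand: gTCAGCACCAaGGACAGCaCC
Myo18b, chr5:113147822-113147842, minus strand: aTCAGCACCATGGACAGCGCa
Garnl3, chr2:32873734-32873754, plus strand: gcCAGCACCAaGGACAGCaCC
Megf11, chr9:64514535-64514555, plus strand: cTCAGCACCtTGGACAGCaCC
Wdr25, chr12:110233069-110233089, minus strand: TTCAGCACCATGGACAGaGCC
Srrm4, chr5:116995931-116995951, plus strand: TTCAGaACCATGGACAGCGCC
Bcan, chr3:87797583-87797603, plus strand: TTCAGCACCAgGGACAGCGCC

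The core CAGCACC and GGACAGC was kept in most of these elements, and the mismatches lay mainly at the outer bases and in the middle. Over all 265 members with a match, position 8 and position 16 of the consensus, counted from 1 at its 5′ end, were matched in every element. Position 19 was matched in 43.8% and position 11 in 54.3%. Within the core, position 6 was matched in 64.9% and position 18 in 67.2%, near the 62.6% of the outer position 1.

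An RE1 match was found in 265 of the 334 distal intragenic sites (79.3%, exact 95% binomial interval 74.6 to 83.6), against 71.3% of all 1183 sites of both E13.5 libraries. It was found in 231 of 377 promoter-proximal sites (61.3%) and in 347 of 472 distal intergenic sites (73.5%). In windows moved 10 kb away from each member, 1 of 334 held a match (0.299%). The share in members was 18.1 percentage points above that of promoter-proximal sites (odds ratio 2.43, two-sided Fisher's exact test, Benjamini-Hochberg adjusted p = 2.99e-07). The difference of 5.82 points from distal intergenic sites did not pass (odds ratio 1.38, adjusted p = 0.0657, Fisher's exact test). With as many top-scoring peaks per library as the shortest list holds, which left 31 members, the difference from promoter-proximal sites was 21.2 points and did not pass (adjusted p = 0.0702, Fisher's exact test). The difference from distal intergenic sites passed with a limit of 10 kb (8.65 points, adjusted p = 0.0082, Fisher's exact test) and with up to 6 mismatches (6.32 points, adjusted p = 0.0217). Sites are not replicates, so these tests describe the peak lists only, and the intervals cover counting error only.

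**Figure D1:**
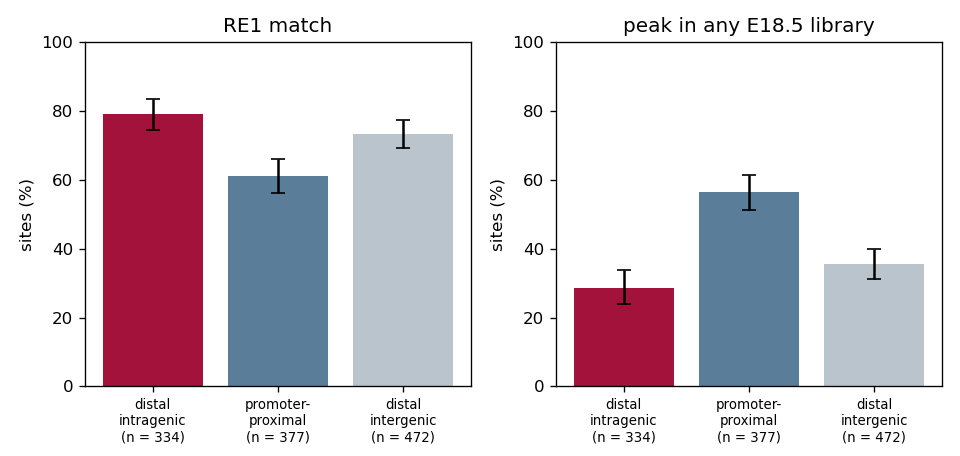
Share of sites (%) with an RE1 match (left) and with a peak in any E18.5 library (right) for distal intragenic, promoter-proximal and distal intergenic sites of both E13.5 libraries; error bars are exact 95% binomial intervals. Distal intragenic sites stand at 79.3% on the left, above promoter-proximal sites at 61.3%, and at 28.7% on the right, below promoter-proximal sites at 56.5%.

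The peak score is the only strength measure in the deposited lists, and no source used here gives its unit, so each peak was placed by its percentile rank within its own library, from 0 to 100. Ranks of the E13.5 libraries describe the members and were not tested, because the E13.5 calls selected them. The mean E13.5 rank had a median of 49.4 in members, 66.2 in promoter-proximal sites and 51.1 in distal intergenic sites. GC content also differed between these classes, with medians of 48.6%, 55.8% and 47.6%. The higher RE1 share than at promoter-proximal sites held within 3 equal rank classes of the 1183 sites, divided at mean E13.5 ranks of 41.2 and 68.9: 73.7% against 48.8% in the lowest, 82.7% against 59.2% in the middle and 83.5% against 68.4% in the highest. The adjusted p-values of these Fisher's exact tests were 0.000721, 0.000184 and 0.0168. The part of GC content was not tested.

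RE1 elements lay close to the centre of the peaks. The median distance between element and peak centre was 11 bp in E13.5 A, where 98.1% lay within 50 bp, and 15.5 bp in E13.5 B, where 83.4% did. Member peaks of E13.5 A were shorter, with a median of 166 bp against 479 bp in E13.5 B. The element pointed in the direction of the host gene in 147 of 265 members (55.5%, interval 49.3 to 61.6), so the interval held equal use of both directions.

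The 69 members without a full match were searched for a left and a right half-site on 1 strand, each with at most 1 mismatch and with 0 to 20 bp between them. Such a pair was present in 19 (27.5%). In 15 of them the gap was 8 to 11 bp (7 sites at 8 bp, 5 at 9 bp, 2 at 10 bp and 1 at 11 bp), and 2 sites each had gaps of 0 and 1 bp. Members with a full match had their pairs at the normal gap of 2 bp, in 84 sites, with 1 further pair at 18 bp. A pair at 2 bp stays within the mismatch limit of a full match. By definition, then, members without a match could not hold one, and this contrast at 2 bp is not a result. The windows 10 kb away held 1 pair, at 2 bp. Of the remaining members without a full match, 37 held a single half-site and 13 held neither. A single half-site without a pair was also present in 61 of the 334 windows 10 kb away, so single half-sites were less rare there than pairs. Of all 69 members without a full match, 25 had a best 21-bp stretch with 6 mismatches, just beyond the limit. The wide gap was also seen at sites outside this class, in 54 of 146 promoter-proximal and 30 of 125 distal intergenic sites without a full match, counted over 7 to 11 bp, a range chosen after the gaps had been seen. The split elements of the strongest or most unusual sites are printed with the half-sites in capitals and the gap in lower case.

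Unc5a, chr13:55072400-55072418, plus strand, gap of 1 bp: TTCAGCACCtGGACAGCGG
L3mbtl4, chr17:68957236-68957253, plus strand, no gap: TTCAGCACTGGACAGCGC
Crtac1, chr19:42471948-42471973, minus strand, gap of 8 bp: TTCAGCACCggggccctGGACAGCAC
Rimbp2, chr5:129423311-129423337, minus strand, gap of 9 bp: TTCAGCACTggggcggatGGACAGCTC
Pax5, chr4:44717340-44717367, plus strand, gap of 10 bp: TTCAGGACCcgctgcgtgtGGACAGCGC
Gpr149, chr3:62398959-62398987, minus strand, gap of 11 bp: ATCAGCACCacgccaccgctGGACAGCGC

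The Unc5a site was among the 3 highest-ranked members and had a peak in every E18.5 library. Its scores were 66 and 65 in E13.5 A and B, and 16, 17 and 11 in E18.5 A, B and C, the order kept for scores throughout. Unc5a encodes a netrin receptor of axon guidance. The Pax5 site, in the first intron of a B-cell transcription factor gene, scored 28 and 40, then 8, 29 and 19 in the later stage. The other one of the 3 highest-ranked sites without a full match lay in Cdk5rap2, a gene for a centrosome protein, and neither a match nor a half-site pair was found there: its best 21-bp stretch had 9 mismatches. It scored 32 and 47, then 46, 13 and 34, and its mean E18.5 rank of 95.1 was the highest of the members called in all 3 E18.5 libraries.

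**Figure D2:**
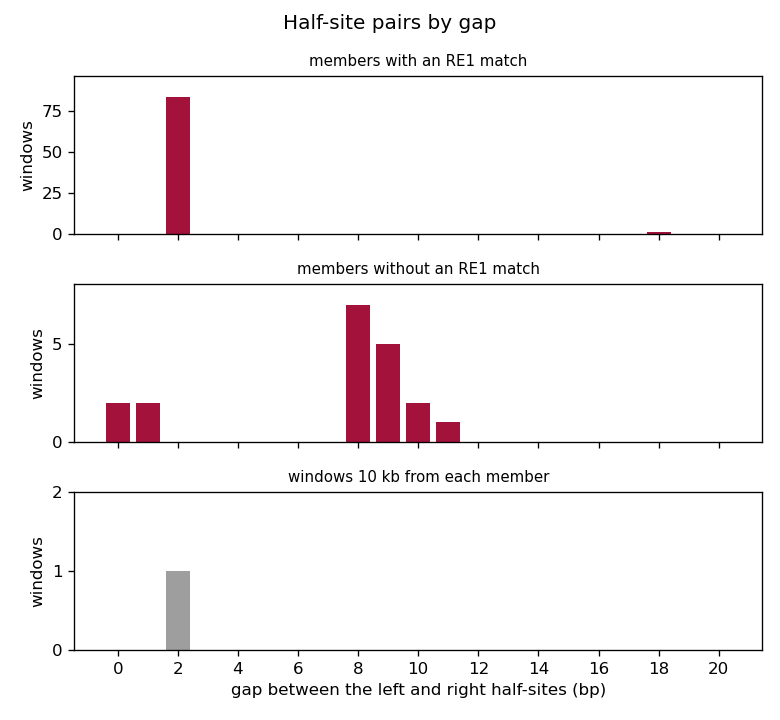
Number of 500-bp windows with a left and a right half-site on 1 strand, by the gap between them (bp), for members with an RE1 match, members without one, and windows 10 kb from each member. Members with a match stand at 2 bp (84 windows), members without one at 0, 1 and 8 to 11 bp, and the distant windows hold 1 pair. A pair at 2 bp counts as a match, so members without one have none there by definition.

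No E18.5 call was required of a member. At E18.5, 96 of the 334 members had a peak in at least 1 library (28.7%, interval 23.9 to 33.9), against 40.3% of all sites of both E13.5 libraries. The share was 213 of 377 (56.5%) for promoter-proximal sites, 27.8 percentage points higher (odds ratio 0.311, adjusted p = 1.55e-13, Fisher's exact test). The size of this difference depended on the peaks used: members minus promoter-proximal sites, it was -11.6 points with scores of 13 or more (adjusted p = 0.00276, Fisher's exact test) and -4.67 points, which did not pass, with equal numbers of top-scoring peaks (adjusted p = 0.756). It was 168 of 472 (35.6%) for distal intergenic sites, 6.85 points higher (odds ratio 0.73, adjusted p = 0.0475, Fisher's exact test). Library by library, members were called in 68, 50 and 43 cases in E18.5 A, B and C (53.7 ± 12.9, SD, n = 3). The shares were 20.4%, 15% and 12.9%, against 38.2%, 41.1% and 29.7% of promoter-proximal sites, so every library showed the lower share in members. Against distal intergenic sites the libraries gave 26.1%, 15.5% and 12.7%, and none passed, the lowest adjusted p being 0.0646 in E18.5 A (Fisher's exact test). Without E18.5 A the difference, members minus distal intergenic sites, was -1.64 points (adjusted p = 0.597, Fisher's exact test). It turned to 4.07 points with scores of 13 or more and to 3.76 points with equal numbers of top-scoring peaks, and neither passed.

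Promoter-proximal sites had higher E13.5 ranks, and members of high rank were more often called at E18.5, so the comparison was repeated within the rank classes. Members were called in 6.77%, 20.9% and 70.3% of the lowest, middle and highest class, against 18.8%, 39.2% and 85.3% of promoter-proximal sites. The adjusted p-values by Fisher's exact test were 0.0249, 0.0079 and 0.0111. The lower share in members was also present among sites with an RE1 match (30.2% against 60.2%, adjusted p = 5.14e-11, Fisher's exact test) and without one (23.2% against 50.7%, adjusted p = 0.000241). Against distal intergenic sites the middle class alone passed (20.9% against 34.2%, adjusted p = 0.0203, Fisher's exact test).

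**Figure D3:**
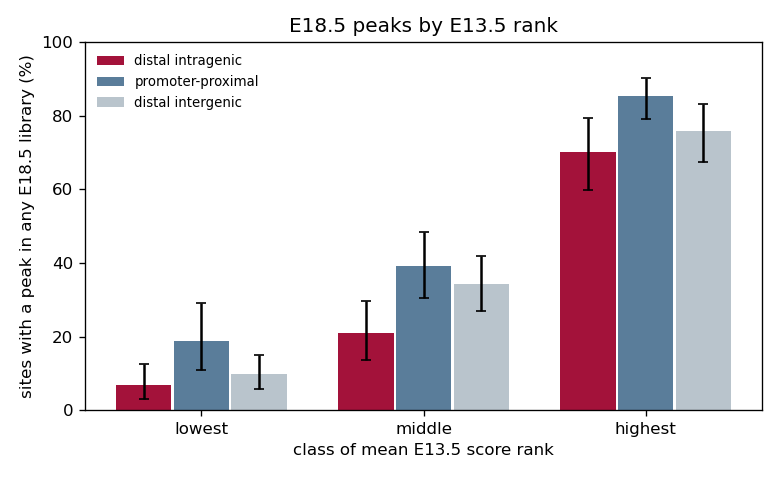
Share of sites (%) with a peak in any E18.5 library by class of mean E13.5 score rank, for the 3 position classes; error bars are exact 95% binomial intervals. In each class, distal intragenic sites (6.77%, 20.9% and 70.3%) lie below promoter-proximal sites (18.8%, 39.2% and 85.3%).

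Members with an RE1 match were called at E18.5 in 80 of 265 cases (30.2%) and members without one in 16 of 69 (23.2%), a difference of 7.0 points that did not pass (odds ratio 1.43, p = 0.297, two-sided Fisher's exact test). The call depended on the mismatch limit: the difference was 15.3 points with at most 4 mismatches (p = 0.00285, Fisher's exact test) and -0.925 points with at most 6. Without E13.5 replicate B it was 12.9 points (p = 0.00617, Fisher's exact test). Within the lowest, middle and highest rank class, with up to 5 mismatches, the share was 7.14%, 22.0% and 69.7% with a match. Without a match it was 5.71%, 15.8% and 73.3%, in 35, 19 and 15 members. No class passed, the lowest p being 0.759 in the middle class (Fisher's exact test). By number of mismatches the share was 16 of 27 (59.3%) at 2, 30 of 85 (35.3%) at 3, 24 of 90 (26.7%) at 4 and 9 of 60 (15%) at 5, with no test of the order. The median E13.5 ranks of these groups were 71.7, 54.3, 48.9 and 36.9, and their part in it was not tested. Of the 3 members with 1 mismatch, the Wdr25 site was called at E18.5 in all libraries, while the Srrm4 and Bcan sites were called in none.

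In all 3 E18.5 libraries, 22 members were called (6.59%), 21 were called in exactly 2 and 53 in exactly 1 (30 in A, 15 in B and 8 in C). Of all 334 members, 27.8% lay in first introns and 65.9% in later introns, and 79.3% held an RE1 match. All 22 members called in every E18.5 library lay in introns and had E13.5 ranks of 71.7 or more, and 19 held an RE1 match. Besides the sites already described they included introns of Cadm3, a cell adhesion gene, Nova2, a neuronal splicing regulator, and Shank1 and Grip1, postsynaptic scaffold genes. Others lay in Vrk3, Ccdc33, Cacna1h, a low-voltage calcium channel gene, and Nsf, whose product takes apart membrane fusion complexes. By mean E18.5 rank the highest after Cdk5rap2 were Phf21b at 94.2, Xkr6 at 87.6, Garnl3 at 86.8, Erich1 at 86.0, Rbfox3 at 84.5, Pax5 at 82.6, Celf4 at 81.0, Unc5a at 79.1 and Cadm3 at 74.3. Of the 22 members with an E13.5 rank over 90, 21 were called at E18.5. The exception was the Crhr2 site, in a gene for a receptor of corticotropin-releasing hormone, with E13.5 scores of 28 and 45 but no peak in the later stage.

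**Figure D4:**
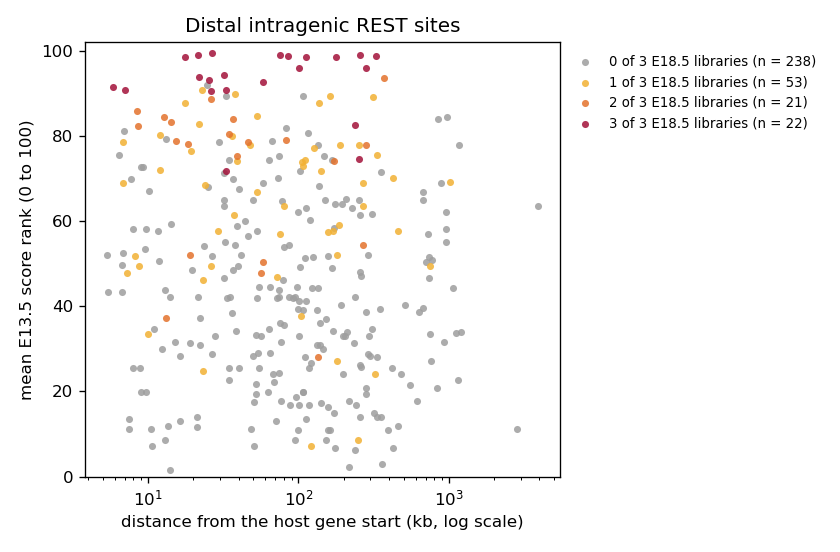
Mean E13.5 score rank (0 to 100) of each of the 334 sites against its distance from the start of its host gene (kb, log scale), coloured by the number of E18.5 libraries with a peak. Sites called in all 3 E18.5 libraries sit at ranks of 71.7 and more, at short and long distances alike.

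The highest score pairs at E13.5 belonged to introns. The Phf21b site, in a gene for a PHD finger protein, scored 61 and 85, then 25, 18 and 26. The Camta1 site, in a gene for a calmodulin-binding transcription activator, scored 53 and 82, then 9, 6 and 18. Rbfox3 encodes the neuronal splicing factor known as NeuN, and its top site scored 51 and 71, then 13, 10 and 19. Each of these sites was called in all 5 libraries.
The Celf4 site, in another neuronal RNA-binding protein gene, scored 46 and 77, then 12, 10 and 15. Those of Xkr6 and Myo18b, a gene for an unconventional myosin, scored 51 and 80, and 54 and 60, at E13.5. The Megf11 site, in a gene for a cell surface protein with EGF-like repeats, scored 36 and 53, then 6, 5 and 10, the lowest E18.5 scores among these.

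Members lay mostly in introns. First introns held 93 (27.8%) and later introns 220 (65.9%), where these classes made up 21.3% and 72.3% of the gene-body length more than 5 kb from a start, and the densities were 0.525 and 0.366 sites per Mb. Coding exons held 5 members, untranslated regions 9 and gene parts outside coding transcripts 7. The coding exons were those of Lrtm2, Extl3, Eya2, Gpr149 and Nptxr, and the RE1 match was found in 2 of the 5. With each host gene cut into 4 equal stretches, from start to end, these held 75, 83, 92 and 84 sites. The median distance to the host start was 84.4 kb, with quartiles of 30.1 and 210.0 kb. For 72 members (21.6%) the nearest protein-coding start belonged to another gene. At the 5 kb limit, the nearest members were those in Dlg2 (5063 bp) and Astn2 (5166 bp), with E13.5 scores of 8 and 15 and of 15 and 17, and the nearest sites left out were those in Rap1gap2 (4986 bp) and Armc8 (4984 bp), with 10 and 12 and with 19 and 16.

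The sites fell in 261 of 22367 protein-coding genes (1.17%), with 1 site in 212 genes, 2 in 30 and 3 or more in 19. Of the hosts, 29 (11.1%) also had a promoter-proximal site, where 1.72% of all genes had one. Host genes were long, with a median of 151 kb against 15.4 kb for all genes. The share of genes with a site was 0.0949% for genes under 20 kb and 22.5% for those of 500 kb or more, and the density lay between 0.298 and 0.463 sites per Mb in every length class.

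Lists of neuronal and pancreatic genes were set beside that density, 0.403 sites per Mb over all protein-coding genes. They are descriptions without a test, and the lists were chosen with earlier results of these data known. Neural RNA-binding proteins, which set splicing and transcript stability in neurons, had the highest density: 7 of 21 genes hosted 15 sites, or 4.08 per Mb. They were Rbfox3 (4 sites), Celf4 and Srrm4 (3 each), Rbfox1 (2), and Nova2, Srrm3 and Nova1 (1 each). Of the 15 sites, 12 held an RE1 match and 6 were called at E18.5. Among all 334 members the shares were 79.3% and 28.7%. Of the 7 hosts, 4 also had a promoter-proximal site, where 11.1% of all hosts had one. Of the 21 genes in the list, 9 (42.9%) had one, against 1.72% of all genes. Srrm4, which promotes the inclusion of short neuronal exons, had its 3 sites at scores of 21 and 22, 14 and 21, and 19 and 15 at E13.5, and none was called at E18.5.

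Potassium channels, the joint list of voltage-gated calcium and sodium channels, and glutamate receptors had densities below that of the RNA-binding list and above that of all genes. Potassium channels had 9 hosts of 94 genes (1.34 sites per Mb), led by Kcnip1, whose product modulates A-type channels, Kcnmb2, an accessory subunit, and Kcnh1, a pore-forming subunit. Voltage-gated calcium and sodium channels had 6 of 41 (1.32 per Mb), led by Cacng2, Cacna1a and Cacna1h. All 6 hosts had symbols of calcium channel genes, by which the list was drawn up, and no sodium channel gene of the list hosted a site. The site of the host Cacna2d4 also lay in the overlapping gene Lrtm2, in a coding exon of that gene. Glutamate receptors had 6 of 26 (0.89 per Mb), led by Grm4, Grid1 and Grik3.

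Genes of adhesion, guidance and transport lay on both sides of the density of all genes. Cadherins had 3 hosts of 37 with 9 sites (1.08 per Mb), which were Cdh13, Cdh4 and Cdh22. Axon guidance genes had 4 of 71 (0.366 per Mb), led by Unc5a, Slit1 and Unc5c, and neurexins, neuroligins and contactins had 2 of 19 (0.174 per Mb), Nrxn3 and Cntn5. The densities of these last 2 lists were below that of all genes, 0.403 per Mb. Solute carriers had 8 of 347 (0.562 per Mb), led by the sodium-calcium exchanger gene Slc8a2, the iodide transporter gene Slc5a5 and Slc8a3. Adenylyl cyclases and phosphodiesterases had 2 of 33 (0.341 per Mb), Adcy5 and Pde2a. Microtubule and neurofilament genes had 1 of 22 (0.787 per Mb), the kinesin gene Kif5a. In that list Map1a, Map1b and Map2 were searched under their older symbols Mtap1a, Mtap1b and Mtap2, and Map4 was not matched.

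Genes of secretion were counted in both position classes. None of the 16 genes of secretory granules and prohormone processing hosted a distal intragenic site, and 12 of them (75%) had a promoter-proximal one. Their gene bodies more than 5 kb from a start came to 1.68 Mb, where fewer than 1 site would fall at the density of all genes, so the count of 0 is near that density. Synaptotagmins, calcium sensors of vesicle release, had 2 hosts of 17 (1.36 sites per Mb), Syt7 and Syt9, with 3 of the 17 having a promoter-proximal site. Vesicle fusion and priming genes had 3 of 33 (0.684 per Mb), Nsf, Syn2 and Rph3a, with 8 of the 33 having a promoter-proximal site. Among 31 gene entries of endocrine transcription factors, 5 had a promoter-proximal site, and Hnf4a and Onecut1 each hosted 1 distal intragenic site. The Hnf4a site scored 19 and 23 and the Onecut1 site 19 and 13 at E13.5, and neither was called at E18.5.
Both sites held an RE1 match. Of 19 hormone and beta-cell genes, 2 had a promoter-proximal site, and Tph2, the neuronal enzyme of serotonin synthesis, hosted 1 distal intragenic site. The density of 3.03 per Mb there rests on this 1 site in 0.33 Mb. The lists of housekeeping genes (11), endothelial and blood genes (11), mesenchymal genes (13), genes of ducts and progenitors (14) and acinar genes (19) hosted none and had no promoter-proximal site. Their distal gene bodies were short, 0.0812 to 0.668 Mb per list, so few sites could be found there at the density of all genes. Few promoter-proximal sites would fall in lists of 11 to 19 genes either, since 1.72% of all genes had one. Across the 21 lists, 57 of the 261 hosts (21.8%) belonged to a list. The lists' share of all protein-coding genes was not counted, so this share has no background beside it.

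The 19 genes with 3 or more sites held 69 of the 334 sites. Camta1 had 7 sites in 802 kb, and of these only the top one was called at E18.5. Atp2b2, a plasma membrane calcium pump gene, had 5 in 297 kb, of which 3 were called, each in E18.5 A alone. Accn1, an acid-sensing channel gene, had 4 sites, all in its first intron, with E13.5 scores from 9 to 34, and Cdh13 had 4, with scores from 5 to 37: none of these 8 was called at E18.5. Rbfox3, Ctnnd2, a delta-catenin gene, Dpp6, an accessory subunit of A-type potassium channels, and the gene model Gm20388 also had 4 each. The Gm20388 model spans 4435 kb and shares 2 of its sites with Jph3, so its sites may be assigned to other genes in a shorter model. The genes with 3 sites were Kcnh1, Anks1b, Celf4, Crtac1, Cdh4, Csmd2, Srrm4, Rimbp2, Csmd1, Megf11 and Nek11. In Megf11, 2 of the 3 were called in all E18.5 libraries.

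**Figure D5:**
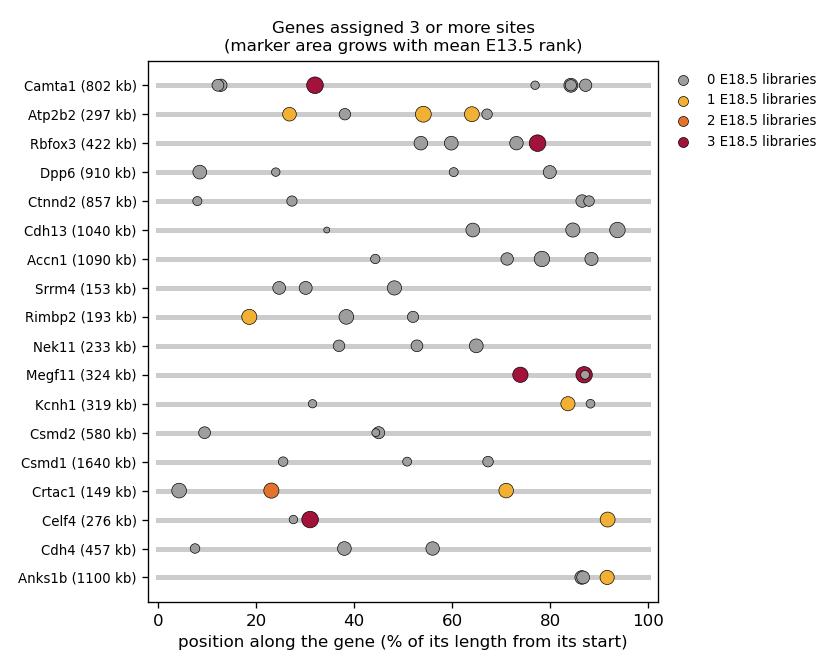
Sites of the 18 genes assigned 3 or more members, by position along the gene (% of its length from its start); each marker is a site, its area grows with mean E13.5 rank and its colour gives the number of E18.5 libraries with a peak. Camta1 has 7 markers, 1 of them called at E18.5, and Cdh13 and Accn1 have none called.

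Sites could lie close together in a host. Of pairs of neighbouring members assigned to the same gene, 13 had midpoints within 10 kb. The closest were in Camta1, 666 bp apart, and 2 more Camta1 members lay 4843 bp apart. The 21-bp elements of the first pair differed at 1 base and those of the second at 2, on the same strand in both pairs, so they are printed side by side.

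Camta1, chr4:150560046-150560066, plus strand: TTCAGCACtcTGGACAGaGCa
Camta1, chr4:150560739-150560759, plus strand: TTCAGCACtcTGGACAGaGCt
Camta1, chr4:151133399-151133419, minus strand: gTCAGCACCATGGtCAGCtCt
Camta1, chr4:151138245-151138265, minus strand: gTCAGCACCAcGGtCAGCtCC

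The first pair scored 13 and 14, and 17 and 24, at E13.5, and the second pair 13 and 18, and 12 and 17. None of these 4 sites was called at E18.5.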

How the data were processed

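Per the submitters' processing notes, reads were aligned with Bowtie2 2.2.5, handled with SAMtools and peaks were called with MACS2 2.1.0 per library. The notes name both mm9 and NCBI36 builds; all peak ends lay within mm9 chromosome lengths. The deposited files held peak positions and a score, for which no source used here gives a unit. Entries that were not on assembled chromosomes were left out of the position classes. Peaks that overlapped were merged, ranks were percentiles of score within a library, and starts were those of protein-coding transcripts. RE1 and half-sites were searched in mm9 sequence with Python 3.11.15 and pysam 0.24.0. Fisher's exact tests (two-sided, scipy 1.17.1) compared shares of sites, with Benjamini-Hochberg adjustment over both comparison classes, and intervals were exact binomial (95%). Other thresholds, score limits and left-out libraries were tried as alternatives. Search, merging and test were checked on simulated data. Named sites were the 12 of highest E13.5 rank, those nearest the 5 kb limit, hosts with 3 or more sites, up to 3 hosts per list, coding-exon sites, up to 10 sites called in all E18.5 libraries, those with fewest mismatches and the 3 highest without a match; Cdk5rap2 falls under several. Neighbouring pairs, Crhr2, Shank1, Grip1, Vrk3, Ccdc33, L3mbtl4 and the remaining hosts of the neural RNA-binding list were chosen after their values were seen. Members, consensus and gene lists were chosen with earlier results of these data known. The result of 1 gene list is not reported here.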

Additional observations from a re-analysis of the deposited data

How the results depend on the processing

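The number of members was 334 and lay between 282 and 429 under other distance limits, overlaps and start sets, but was 186 with scores of 13 or more and 31 with as many top-scoring peaks per library as the shortest list holds. Without E13.5 replicate A or B it was 380 or 409. Host genes numbered 148 with scores of 13 or more, and 299 and 317 with 1 E13.5 library left out. The RE1 difference from promoter-proximal sites kept its direction under all 11 alternatives (11.5 to 21.2 points) and missed the threshold only with the top-scoring peaks (21.2 points, adjusted p = 0.0702, Fisher's exact test). From distal intergenic sites it passed beyond 10 kb (8.65 points) and with at most 6 mismatches (6.32 points), and not under the other 9. The E18.5 difference from promoter-proximal sites ranged from -29.0 to -4.67 points over 12 alternatives: it was -11.6 with scores of 13 or more and missed the threshold with the top-scoring peaks (-4.67 points, adjusted p = 0.756, Fisher's exact test). The E18.5 difference from distal intergenic sites passed in 2 of 12, with starts of all transcripts of protein-coding genes and with sites merged from E13.5 peaks alone, both added after seeing the data. It missed beyond 1 kb (-4.73 points), beyond 10 kb (-5.77) and with a peak in at least 2 libraries (-0.685), and reversed with the top-scoring peaks (3.76) and with scores of 13 or more (4.07). With 1 library left out it ranged from -6.49 to -1.64 points. The E18.5 difference between members with and without RE1 was 15.3 points with at most 4 mismatches (p = 0.00285, Fisher's exact test) and -0.925 with at most 6; with 1 library left out it ranged from 4.99 to 12.9 points and passed without E13.5 replicate B (p = 0.00617, Fisher's exact test). The causes were not tested. No paired analysis was possible because libraries with the same letter came from different embryos and stages. Lists without read totals limit every share: a site without a peak may be bound below the calling threshold.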
